A study of Mus musculus with 12 samples.

Results

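The receptors of the colony-stimulating factors were followed in cultured mouse osteoclasts, the multinucleated cells that resorb bone. The group holds 5 genes of the 47643 in the count table, chosen by name: Csf1r for the receptor of M-CSF, Csf2ra, Csf2rb and Csf2rb2 for the receptors of GM-CSF and IL-3, and Csf3r for the receptor of G-CSF. No cut-off on measured values entered this choice, but it was made with earlier results of these data known. Bulk RNA-seq. had been performed on 12 libraries in 3 groups of 4. BMMs, monocytes grown out of femur and tibia marrow of BALB/c wildtype mice, were the start of all cultures, which were kept with M-CSF and RANKL, the cytokines that drive osteoclast formation, and all were harvested at day 3 with fresh medium given at day 2. The labels give 5 ng/µL of M-CSF and 10 ng/µL of RANKL, whereas the methods of the study state both per mL and give a higher number for M-CSF in this phase of culture, after a night at the number of the labels. OCsCtr were left unstimulated. OCsEo received sorted eosinophils of IL-5tg/4get mice, which overproduce IL-5, at 1 BMM to 2 eosinophils from day 0 for 48 h. OCsEoS received eosinophil supernatant at a 1:2 dilution over the same 48 h, and in both groups the stimulus was washed away before the last day of culture. No sort before RNA extraction is described, so that eosinophils left in the OCsEo cultures would be part of those libraries. The ages of the mice are not given for these cultures, and the methods of the study call the 4 samples of a group biological replicates. The labels do not say whether they came from separate mice, and p-values measure the spread between these samples.

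M-CSF signals through Csf1r, a receptor tyrosine kinase that is needed for the survival and growth of macrophages and osteoclast precursors and that also binds IL-34. GM-CSF is bound by an alpha chain, Csf2ra, which signals only together with the common beta chain Csf2rb. IL-3 and IL-5 use this same beta chain with their own alpha chains, Il3ra and Il5ra, and mice carry a second beta chain gene, Csf2rb2, whose product works with the IL-3 receptor alone. Csf3r forms a homodimer that binds G-CSF and is best known from neutrophils.

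Of these chains, Csf2rb and Csf2rb2 are close copies that lie beside each other on chromosome 15, which bears on every value given for them. Csf2rb (ENSMUSG00000071713) occupies chr15:78325990-78351000 on the + strand of GRCm38 and Csf2rb2 (ENSMUSG00000071714) chr15:78282517-78305603 on the - strand. Their coding sequences of 2688 and 2634 bases were identical at 2503 of 2628 aligned bases, or 95.2%. The longest run that they share without a difference spans 242 coding bases of exon 14. It lies at chr15:78348577-78348818 (+ strand) in Csf2rb and at chr15:78284630-78284871 (- strand) in Csf2rb2, and a read from inside it cannot be placed in either gene by its own bases. It is shown because it is the longest coding stretch in which the genes are the same. Shorter identical stretches lie elsewhere in the coding sequences.
Csf2rb and Csf2rb2, shared run: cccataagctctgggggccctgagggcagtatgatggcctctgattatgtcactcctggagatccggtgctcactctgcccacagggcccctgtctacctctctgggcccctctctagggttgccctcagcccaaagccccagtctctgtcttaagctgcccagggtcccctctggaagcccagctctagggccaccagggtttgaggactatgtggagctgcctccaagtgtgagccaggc

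The opposite case is a window of 90 coding bases in exon 4 with 16 differences. This is the most of any window of this length that aligns without gaps inside a single exon. It lies at chr15:78338897-78338986 in Csf2rb and at chr15:78294345-78294434 in Csf2rb2, on the same strands as above. It is shown, with the bases that differ in capitals, because reads from such windows tell the genes apart.
Csf2rb, exon 4: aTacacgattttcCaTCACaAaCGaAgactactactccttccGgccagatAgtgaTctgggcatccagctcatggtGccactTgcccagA
Csf2rb2, exon 4: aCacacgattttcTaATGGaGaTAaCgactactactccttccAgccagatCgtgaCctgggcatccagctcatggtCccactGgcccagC

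Along the coding sequence, 27 of 129 windows of 60 bases were identical in the paralogs, the median window was 96.7% identical, and the lowest reached 80.0%. Of all 50-base stretches of the Csf2rb transcript, 18.9% also occur in the Csf2rb2 transcript, and at 150 bases 3.58% do. In the reverse direction the shares were 19.0% and 3.59%. Counts of the pair are therefore given for each gene and for both together.

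**Figure D1:**
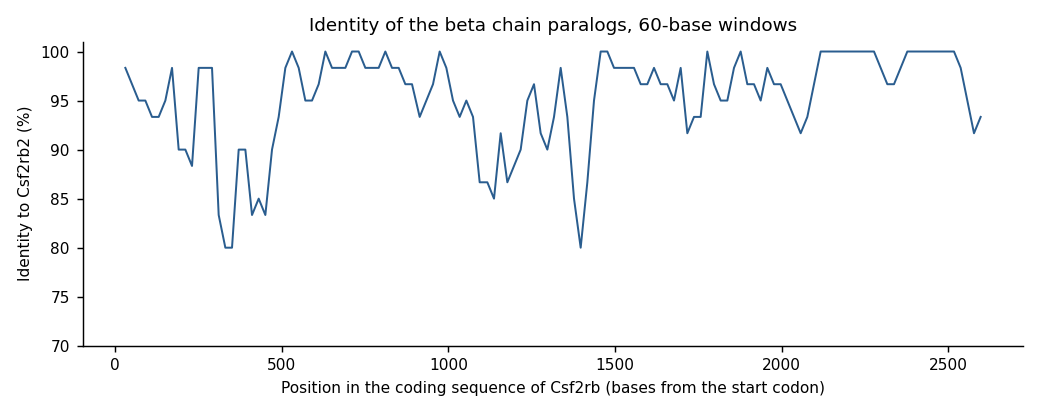
Percent identity of Csf2rb and Csf2rb2 in windows of 60 coding bases (y axis, from 70%) against the position in the Csf2rb coding sequence in bases (x axis). Identity falls to 80.0% in the first part of the sequence and again near its middle, and stays at 100% over long stretches near the end.

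Of the 3 chains with an entry in the RefSeq promoter table (GRCm38.p6), Csf2ra and Csf2rb2 are shown with the 250 bases before their RefSeq start, since PU.1, a transcription factor of all myeloid cells, is known to act on promoters of this family. Capitals mark the core letters of its site, GAGGAA, or TTCCTC where the match is on the other strand. Csf2ra has 2 matches, 14 and 8 bases before the start, in chr19:61228419-61228668 (- strand), of which the last 11 bases lie inside the gene as GENCODE draws it. Csf2rb2 has 1 on the other strand, 167 bases before the start, in chr15:78305722-78305971 (- strand). The window of Csf3r is not shown because its RefSeq start lies further in, so that 109 of its 250 bases fall inside the gene as the count table gives it. Of 32851 promoters of this length, 7639 (23.3%) hold the letters on either strand, so that such a match is common and is a description only. Csf1r and Csf2rb had no entry.
Csf2ra promoter: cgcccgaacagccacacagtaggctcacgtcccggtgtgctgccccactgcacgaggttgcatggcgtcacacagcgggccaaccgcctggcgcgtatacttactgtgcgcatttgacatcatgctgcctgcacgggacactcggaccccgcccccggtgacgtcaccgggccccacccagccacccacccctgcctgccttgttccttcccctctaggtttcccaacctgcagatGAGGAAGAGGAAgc
Csf2rb2 promoter: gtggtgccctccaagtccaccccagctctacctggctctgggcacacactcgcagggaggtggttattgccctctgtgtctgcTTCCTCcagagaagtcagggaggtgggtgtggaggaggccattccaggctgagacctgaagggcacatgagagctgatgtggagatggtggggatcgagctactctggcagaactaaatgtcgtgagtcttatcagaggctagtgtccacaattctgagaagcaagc

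All 5 chains had reads in all 12 libraries and passed the filter on low counts. Levels are given as TMM-scaled CPM, that is, counts relative to the size of the library, and between genes as CPM per kilobase of the gene length in the table. In OCsCtr, Csf1r stood far above the other chains, with 253 CPM per kb, which ranked 333 among 13681 tested genes. Csf2ra had 49.2 CPM per kb (rank 1403), Csf2rb 23.0 (rank 2530) and Csf2rb2 6.98 (rank 5257). Csf3r was close to the low end with 0.711 CPM per kb (rank 10582). This order held in every one of the 12 libraries. The ranges over libraries did not overlap between neighbours, with 148 to 270 CPM per kb for Csf1r, 37.7 to 56.4 for Csf2ra, 16.9 to 25.1 for Csf2rb, 5.56 to 8.13 for Csf2rb2 and 0.354 to 1.08 for Csf3r.

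The libraries held 27837530 to 40327869 counts, so that 3 counts, used here as the floor for a gene without signal, equal 0.0769 to 0.107 CPM. The labelled cell type was present: all 10 osteoclast markers were expressed in all groups, with summed levels of 28358 to 34496 CPM in OCsCtr, 18093 to 23205 CPM in OCsEo and 14942 to 22171 CPM in OCsEoS. Of the eosinophil markers, Epx (eosinophil peroxidase) reached at most 18 counts in any library and was at 0 in OCsEoS, as were Prg3, Ear1 and Ear6. Alox15 had 11.0 ± 4.34 CPM in OCsEo (SD, n = 4) against 0.300 ± 0.249 in OCsCtr and 0.669 ± 0.390 in OCsEoS. Summed B cell markers stayed between 7.39 and 21.4 CPM in all libraries, T cell markers between 0.292 and 2.28 CPM and basophil and mast cell markers between 1.31 and 4.26 CPM.

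The first question was whether the receptors differ when eosinophils or their supernatant are present during the first days of differentiation. Csf1r was lower in both settings, Csf2ra and Csf2rb were lower with supernatant by smaller amounts, and no difference was detected for Csf2rb2 and Csf3r. To be called, a gene had to meet both thresholds of the study, 0.05 for the adjusted p and 0.5 for the size of the log2 fold change in either direction. Against OCsCtr, none of the 5 chains was called in OCsEo by edgeR or by DESeq2, where edgeR called 5.88% of all tested genes (3.27% higher and 2.61% lower). With the adjusted p alone, 1 of 5 passed there, downwards, where 17.4% of genes passed (9.06% upwards and 8.35% downwards), and at an unadjusted p under 0.05 in edgeR 2 of 5 did, where 29.7% of genes did. In OCsEoS, 1 chain was called lower, where 7.73% of genes were called (3.63% higher and 4.11% lower). With the adjusted p alone 3 passed, all downwards, where 23% of genes passed (11.8% upwards and 11.2% downwards). The median log2 fold change of the 5 chains was -0.06 in OCsEo and -0.29 in OCsEoS, beside -0.01 over all tested genes in both comparisons. The comparisons share the OCsCtr libraries and are not independent of each other.

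**Figure D2:**
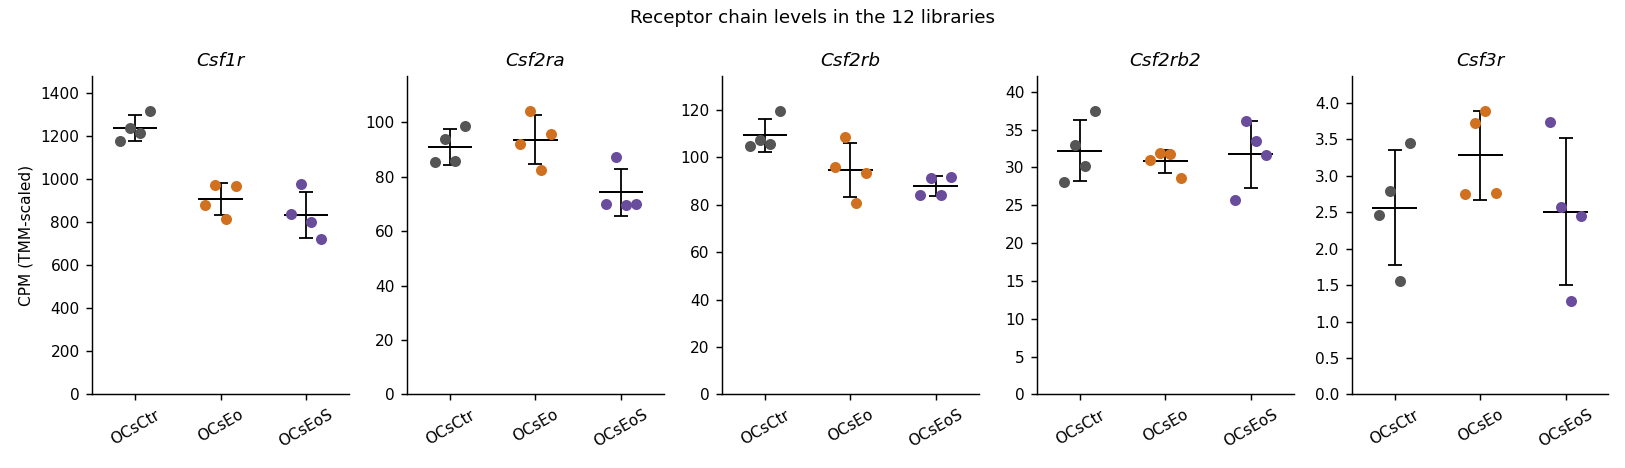
CPM of each receptor chain (y axes, linear from 0, a scale of its own for each gene) in the 4 libraries of OCsCtr, OCsEo and OCsEoS, with the mean as a line and the SD as bars. Every OCsCtr library lies above all libraries of the other groups for Csf1r, whereas the groups of Csf2rb2 and Csf3r overlap.

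Csf1r (ENSMUSG00000024621, chr18:61105572-61132149, + strand), the M-CSF receptor, had 1178, 1240, 1213 and 1319 CPM in the OCsCtr libraries. The OCsEo libraries had 881, 973, 817 and 967 CPM, and the OCsEoS libraries 839, 978, 802 and 723 CPM. All 8 libraries with a stimulus thus lay below all 4 controls. Of the 5 chains, 1 was separated downwards in this way in OCsEo, where 10.9% of all tested genes were, and 2 in OCsEoS, where 13.1% were. The OCsCtr mean was 1238 ± 59.9 CPM (SD, n = 4), that of OCsEo 909 ± 74.3 CPM and that of OCsEoS 835 ± 107 CPM. With eosinophils, Csf1r dropped by 0.44 on the log2 scale (SE 0.08, 95% interval -0.60 to -0.29, edgeR adjusted p = 4.49e-04), which is 26.5% lower but under the fold threshold of a call. DESeq2 on all 12 libraries gave -0.44 as well. The study, which used DESeq2 and the same thresholds, names Csf1r among genes strongly downregulated by both stimuli. With supernatant Csf1r dropped by 0.57 (SE 0.08, 95% interval -0.73 to -0.41, edgeR adjusted p = 3.33e-05), or 32.5%, and was called. The interval of this change includes the fold threshold, and without the 4th OCsEoS library the change was -0.498 with edgeR adjusted p = 1.50e-04, just short of the call. Between OCsEoS and OCsEo the difference of -0.12 had a 95% interval of -0.28 to 0.04 and did not pass (edgeR adjusted p = 0.582).

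Csf1r moved alongside the osteoclast markers, of which 10 of 10 passed the adjusted p downwards in each comparison and 8 were called. Among all tested genes, 8.35% passed downwards in OCsEo and 11.2% in OCsEoS, and 2.61% and 4.11% were called lower. The osteoclast markers had median log2 fold changes of -0.56 in OCsEo and -0.76 in OCsEoS. Their part in the Csf1r result was not tested, and in bulk RNA fewer cells of a type cannot be told apart from less RNA per cell. Macrophage and monocyte markers did not follow the same direction: of 11, the adjusted p was passed upwards by 3 and downwards by none in OCsEo, and upwards by 4 and downwards by 1 in OCsEoS. Among all tested genes, 9.06% passed upwards in OCsEo and 11.8% in OCsEoS. The summed level of these macrophage and monocyte markers was 5363 to 5915 CPM in OCsCtr, 5876 to 7365 CPM in OCsEo and 5600 to 6586 CPM in OCsEoS. At its last bases Csf1r overlaps Hmgxb3, on the opposite strand, over 873 bases. Hmgxb3 had 296 to 432 counts per library, or 0.698% to 1.63% of those of Csf1r, and its log2 fold changes of -0.13 in OCsEo and -0.08 in OCsEoS did not pass (edgeR adjusted p = 0.665 and 0.786). Mir6983, inside Csf1r, was at 0 counts.

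Csf2ra (ENSMUSG00000059326, chr19:61224402-61228418, - strand), the ligand-binding chain for GM-CSF, had 85.2, 93.9, 85.6 and 98.8 CPM in OCsCtr and 92.1, 104, 82.5 and 95.6 CPM in OCsEo. These groups overlapped, with means of 90.9 ± 6.63 and 93.6 ± 8.99 CPM (SD, n = 4). The difference was 0.04 on the log2 scale (SE 0.09, 95% interval -0.14 to 0.22, edgeR adjusted p = 0.801). OCsEoS had 70.1, 87.3, 69.8 and 69.9 CPM, so that 3 libraries lay together below the controls and the 2nd lay among them. In this group Csf2ra fell by 0.29 (SE 0.09, 95% interval -0.47 to -0.11, edgeR adjusted p = 0.0189), which is under the fold threshold. This passing did not hold without OCsCtr 2, OCsCtr 4, OCsEoS 1, OCsEoS 3 or OCsEoS 4, each left out alone (edgeR adjusted p = 0.0587 to 0.0696). OCsEoS lay 0.33 below OCsEo (log2 fold change -0.33, 95% interval -0.51 to -0.15), which did not pass (edgeR adjusted p = 0.0937). Without the 2nd OCsEoS library that difference was -0.42 and passed (edgeR adjusted p = 0.0224), and with all libraries it passed in DESeq2 (adjusted p = 0.0203).

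Csf2rb, the common beta chain, had 105, 107, 106 and 120 CPM in OCsCtr, 96.0, 109, 80.6 and 93.6 CPM in OCsEo and 84.0, 91.3, 84.3 and 91.6 CPM in OCsEoS. The supernatant libraries were all below the controls, whereas the 2nd OCsEo library lay among them. Csf2rb fell by 0.32 on the log2 scale in OCsEoS (SE 0.08, 95% interval -0.48 to -0.15, edgeR adjusted p = 0.00654), which is under the fold threshold. In OCsEo the change of -0.21 (SE 0.08, 95% interval -0.37 to -0.04) did not pass (edgeR adjusted p = 0.0792). Without the 2nd OCsEo library it was -0.28 and passed (edgeR adjusted p = 0.0170). Between the stimulated groups the difference was -0.11 (edgeR adjusted p = 0.648).

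Csf2rb2, the second beta chain gene, had 28.1, 33.0, 30.2 and 37.5 CPM in OCsCtr, 31.0, 31.8, 31.7 and 28.7 CPM in OCsEo and 25.7, 36.2, 33.5 and 31.6 CPM in OCsEoS. The 3 groups overlapped fully. The log2 fold change was -0.06 in OCsEo (95% interval -0.29 to 0.16, edgeR adjusted p = 0.754) and -0.02 in OCsEoS (95% interval -0.25 to 0.21, edgeR adjusted p = 0.923). The lower ends of these intervals come near the -0.32 of Csf2rb in OCsEoS.

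Because the paralogs share sequence, their sum was also fitted as 1 gene. The pair had 142 ± 10.9 CPM without stimulus (SD, n = 4), 125 ± 11.7 CPM with eosinophils and 120 ± 7.68 CPM with supernatant. The sum fell by 0.24 on the log2 scale in OCsEoS (SE 0.08, edgeR adjusted p = 0.0235), while its change of -0.17 in OCsEo did not pass (edgeR adjusted p = 0.122). Csf2rb made up 77.3% ± 1.24 of the reads of the pair in OCsCtr, 75.3% ± 2.47 in OCsEo and 73.5% ± 2.42 in OCsEoS, with overlapping groups. How the authors' counting placed reads from the shared stretches is not given in the sources used here, so that the split between these genes is uncertain and their sum does not depend on it, provided that such reads were counted at all. Mir7676-2 and Mir7676-1, which lie inside Csf2rb and Csf2rb2, were at 0 counts.

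Csf3r (ENSMUSG00000028859, chr4:126024550-126044440, + strand), the G-CSF receptor, had few reads, between 43 and 152 counts per library. OCsCtr had 2.46, 2.79, 1.56 and 3.45 CPM, OCsEo 2.75, 3.72, 3.90 and 2.77 CPM, and OCsEoS 3.74, 2.58, 1.28 and 2.45 CPM. The groups overlapped. In OCsEo the log2 fold change was 0.36 (SE 0.31, 95% interval -0.29 to 1.01, edgeR adjusted p = 0.496), and in OCsEoS it was -0.04 (95% interval -0.69 to 0.62, edgeR adjusted p = 0.955). The interval of OCsEo includes levels up to 2.02-fold higher. Neutrophil markers, whose cells carry this receptor, were summed at 365 to 518 CPM in OCsCtr, 529 to 699 CPM in OCsEo and 410 to 479 CPM in OCsEoS, and none of the 13 was at 0 in a whole group. Of these 13, Elane (neutrophil elastase) and Camp (cathelicidin) were called higher in OCsEo, by 0.99 and 0.51 on the log2 scale (edgeR adjusted p = 3.80e-04 and 0.00876), and none passed in OCsEoS. Among all tested genes, 3.27% were called higher in OCsEo. Of the 13 markers, 12 were higher and 1 lower in OCsEo than in OCsCtr, and 4 passed the adjusted p upwards, beside 9.06% of all tested genes. In OCsEoS against OCsEo all 13 were lower and 3 were called lower, beside 0.307% of all tested genes. Their part in the Csf3r values was not tested.

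**Figure D3:**
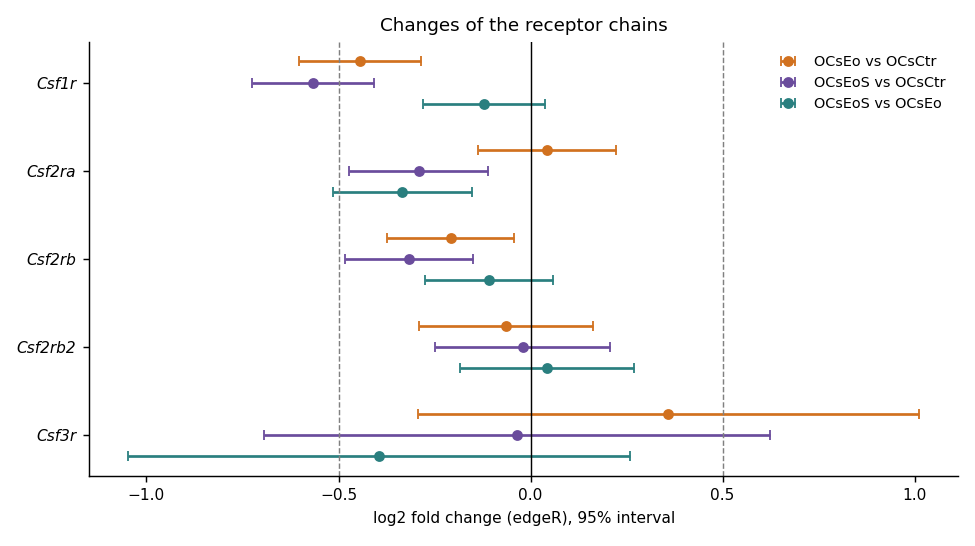
Log2 fold change (x axis) of the 5 receptor chains with the 95% interval of the edgeR fit as bars, for OCsEo and OCsEoS against OCsCtr and for OCsEoS against OCsEo. Dashed lines mark the fold threshold of 0.5. Csf1r and Csf2rb have their intervals against OCsCtr below 0, although Csf2rb did not pass the adjusted p in OCsEo. The interval of Csf2ra in OCsEoS against OCsCtr is also below 0, and Csf3r has the widest intervals.

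The balance of the chains was then described within each library, where scaling between libraries has no part. On the log2 scale of CPM per kb, Csf1r exceeded Csf2ra by 2.32 to 2.42 in OCsCtr, by 1.82 to 1.94 in OCsEo and by 1.97 to 2.18 in OCsEoS. The 3 groups did not overlap, with OCsEo lowest and OCsEoS in between. Means were 2.37 ± 0.05, 1.88 ± 0.05 and 2.09 ± 0.09 (SD, n = 4). The M-CSF receptor thus stood lower against the GM-CSF binding chain in both stimulated groups. In OCsEo this went with a log2 fold change of -0.44 for Csf1r beside 0.04 for Csf2ra, and in OCsEoS with -0.57 beside -0.29.

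The chains of the GM-CSF receptor itself also stood in unequal proportion. Csf2ra exceeded Csf2rb by 1.06 to 1.17 log2 units of CPM per kb in OCsCtr, by 1.31 to 1.40 in OCsEo and by 0.977 to 1.30 in OCsEoS. All 4 OCsEo libraries were above all others, while OCsCtr and OCsEoS overlapped. Csf1r exceeded Csf2rb by 3.46 ± 0.03 in OCsCtr, 3.23 ± 0.10 in OCsEo and 3.21 ± 0.19 in OCsEoS (SD, n = 4). A ratio shows unequal change only and does not say which chain moved. These ratios were described without a test.

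**Figure D4:**
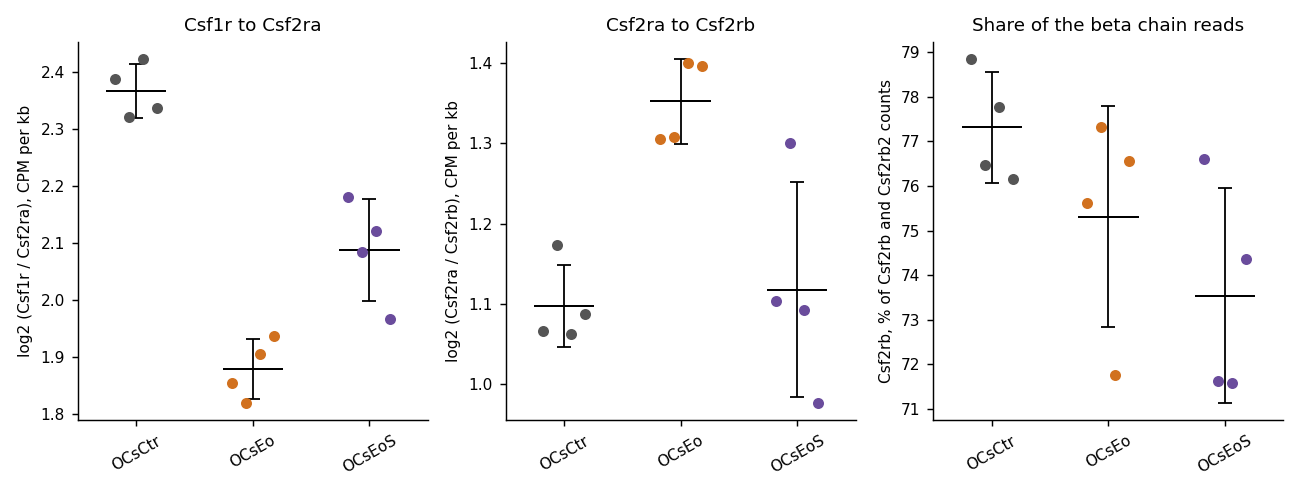
Log2 ratio of Csf1r to Csf2ra and of Csf2ra to Csf2rb in CPM per kb, and Csf2rb as percent of the counts of Csf2rb and Csf2rb2, for each library (points) with mean (line) and SD (bars); the y axes do not start at 0. The ratio of Csf1r to Csf2ra separates the 3 groups, the OCsEo libraries have the highest ratio of Csf2ra to Csf2rb, and the share of Csf2rb overlaps between groups.

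Over the 12 libraries, Csf1r and Csf2ra had a Pearson r of log2 CPM of 0.65, which was 0.88 after group means were taken out. For Csf1r and Csf2rb these values were 0.84 and 0.51, and for Csf2ra and Csf2rb 0.71 and 0.77. For Csf3r and Csf1r little correlation was seen, with 0.00 and 0.19, where the low counts of Csf3r limit what can be detected. The points share the library, its scaling and the groups, so that these are descriptions. The genes with the pattern closest to each chain, by the same r over 12 libraries, included Natd1 for Csf1r (0.99) and Tgfb1 (0.94), Ctsa (0.93) and Nucb1 (0.93) for Csf2ra. For Csf2rb they were Srrm2 (0.96), Kif1b (0.95) and Ctnna1 (0.95), for Csf2rb2 Gm7353 (0.88), Mboat7 (0.84) and Ttll1 (0.82), and for Csf3r Zbtb45 (0.90), Iglc1 (0.89) and Xpa (0.88).

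The ligands of these receptors were looked up next, as the cells could be a source of them. Csf1, the gene of M-CSF, had 0.920 to 4.79 CPM over all libraries and Il34, the second ligand of Csf1r, 2.68 to 7.51 CPM. Neither passed in any comparison, and the M-CSF added to the medium is not seen in RNA. Csf2 (GM-CSF), Csf3 (G-CSF) and Il3 had 0 counts in every library, which allows up to 0.0769 to 0.107 CPM per library (3 counts, counting error only).

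Il5 was the exception. It had 75, 94, 163 and 44 counts in OCsEo (1.52 to 4.18 CPM), 1 count in all of OCsCtr and 0 in OCsEoS. By the summed counts, 376 against 1, the ratio of OCsEo to OCsCtr was 348, known only to within a counting interval of 62.1 to 13788, and Il5 was at least 28.2-fold higher than in OCsEoS, taking 3 counts per library as the floor of that group at 0. The eosinophils of OCsEo came from mice that overproduce IL-5, whose transcripts cannot be told apart here from those of the BMMs.

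Of the alpha chains that pair with Csf2rb besides Csf2ra, Il3ra (IL-3 receptor) had 9.46 to 13.1 CPM in OCsCtr, 16.0 to 18.4 CPM in OCsEo and 9.07 to 14.7 CPM in OCsEoS. The OCsEo libraries lay above all others. Over all tested genes, 10.5% had every OCsEo library above every OCsCtr library, and 3.27% were called higher in OCsEo. Il3ra rose by 0.53 on the log2 scale in OCsEo (SE 0.14, edgeR adjusted p = 0.0136) and was called, and its change in OCsEoS was 0.00 (edgeR adjusted p = 0.996). The difference between OCsEoS and OCsEo, -0.53, did not pass (edgeR adjusted p = 0.122). Il5ra (IL-5 receptor) had 4 to 14 counts in OCsEo, 4 in all of OCsCtr and 10 in all of OCsEoS, too few to be tested. Of the eosinophil markers, 5 of 10 could be tested, and their median log2 fold change in OCsEo was -0.0089. Alox15 and Siglecf were called higher there, while Ccr3, the most abundant, had 48.7 ± 3.19 CPM against 59.6 ± 6.03 in OCsCtr (SD, n = 4) and passed the adjusted p downwards. The sum of the list, mostly Ccr3, was 57.1 to 73.7 CPM in OCsCtr, 60.1 to 82.2 CPM in OCsEo and 49.3 to 55.5 CPM in OCsEoS. Prg2, a granule protein, was called lower in OCsEoS. Their part in the Il3ra result was not tested.

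Csf1r belongs to the class III receptor tyrosine kinases. The other 4 genes of this class, Kit, Flt3, Pdgfra and Pdgfrb, were all under 5 CPM in every library, and none passed in any comparison.

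Downstream of Csf1r, 29 adaptors, kinases and phosphatases of proximal signalling were tested. In OCsEo, 2 were called lower and none higher, and 3 passed the adjusted p upwards and 4 downwards, beside 5.88% of all tested genes called and 17.4% passing. In OCsEoS, 2 were called lower and 2 higher, with 3 passing upwards and 6 downwards, beside 7.73% of all tested genes called and 23% passing. Their median log2 fold changes were -0.08 and -0.10. Src, a kinase recruited to Csf1r and needed for bone resorption, had 162 to 178 CPM in OCsCtr, 107 to 124 CPM in OCsEo and 95.5 to 117 CPM in OCsEoS, with log2 fold changes of -0.55 and -0.66 (edgeR adjusted p = 2.60e-05 and 4.27e-06). Gab2, an adaptor that links the receptor to PI3K, fell by 0.75 in OCsEo and by 0.86 in OCsEoS on the log2 scale (edgeR adjusted p = 8.16e-04 and 1.78e-04). Dok2, an adaptor that dampens kinase signalling, had log2 fold changes of 0.45 in OCsEo and 0.59 in OCsEoS, and Fyn, a Src family kinase, of 0.35 and 0.56. Both passed the adjusted p in each comparison and were called in OCsEoS only, a difference between stimuli that did not pass for any of the 29 genes.

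In the JAK-STAT list (16 tested), through which the beta chains and Csf3r signal, 1 gene was called higher in OCsEo, and 1 higher and 1 lower in OCsEoS, beside the same shares of all genes. By the adjusted p alone, 1 passed upwards and 1 downwards in OCsEo, and 1 upwards and 4 downwards in OCsEoS. Over all tested genes, 9.06% passed upwards and 8.35% downwards in OCsEo, and 11.8% and 11.2% in OCsEoS. Socs1, a feedback inhibitor, rose by 0.69 in OCsEo and 0.71 in OCsEoS on the log2 scale (edgeR adjusted p = 0.0429 and 0.0305) from 2.83 ± 0.345 CPM in OCsCtr (SD, n = 4). Jak3, the kinase of the common gamma chain, was called lower in OCsEoS (log2 fold change -0.64, edgeR adjusted p = 0.0189), with overlapping groups. The list medians were -0.07 and -0.20.

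None of the 5 genes of ectodomain shedding, by which the outer part of Csf1r is released from the surface, passed in either comparison.

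Of 10 tested growth and survival targets of M-CSF, 2 rose past both thresholds with eosinophils and 1 with supernatant, and none was called lower. The matching upward shares of the whole tested set were 3.27% and 3.63%. By the adjusted p alone, 4 of the 10 passed upwards and 0 downwards with eosinophils, where 9.06% and 8.35% of genes did. With supernatant, 2 passed upwards and 1 downwards, where 11.8% and 11.2% of genes did. Ccnd1 (cyclin D1) rose by 0.73 in OCsEo and 0.95 in OCsEoS on the log2 scale (edgeR adjusted p = 0.00130 and 9.23e-05), and Plau (urokinase) by 0.54 and 0.38, the latter under the fold threshold. The list medians were 0.12 and 0.16. For GM-CSF, 8 of 10 listed response genes could be tested. Of these, Fabp4 and Fabp5, fatty acid-binding proteins, were called higher in both comparisons, beside the same 3.27% and 3.63% of all genes. Fabp5 went from 57.4 ± 4.05 CPM without stimulus (SD, n = 4) to 132 ± 17.4 CPM with eosinophils and 85.2 ± 7.99 CPM with supernatant, with log2 fold changes of 1.20 and 0.57. It was also the only gene of these lists besides Il5 with a called difference between stimuli, at -0.63 for OCsEoS against OCsEo (edgeR adjusted p = 0.00120), leaving the cell type markers aside. Fabp4 rose by 1.88 and 1.34 on the log2 scale from 1.25 ± 0.393 CPM in OCsCtr (SD, n = 4). The list medians were 0.20 and 0.24, and Csf2 itself was at 0 counts as given above.

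**Figure D5:**
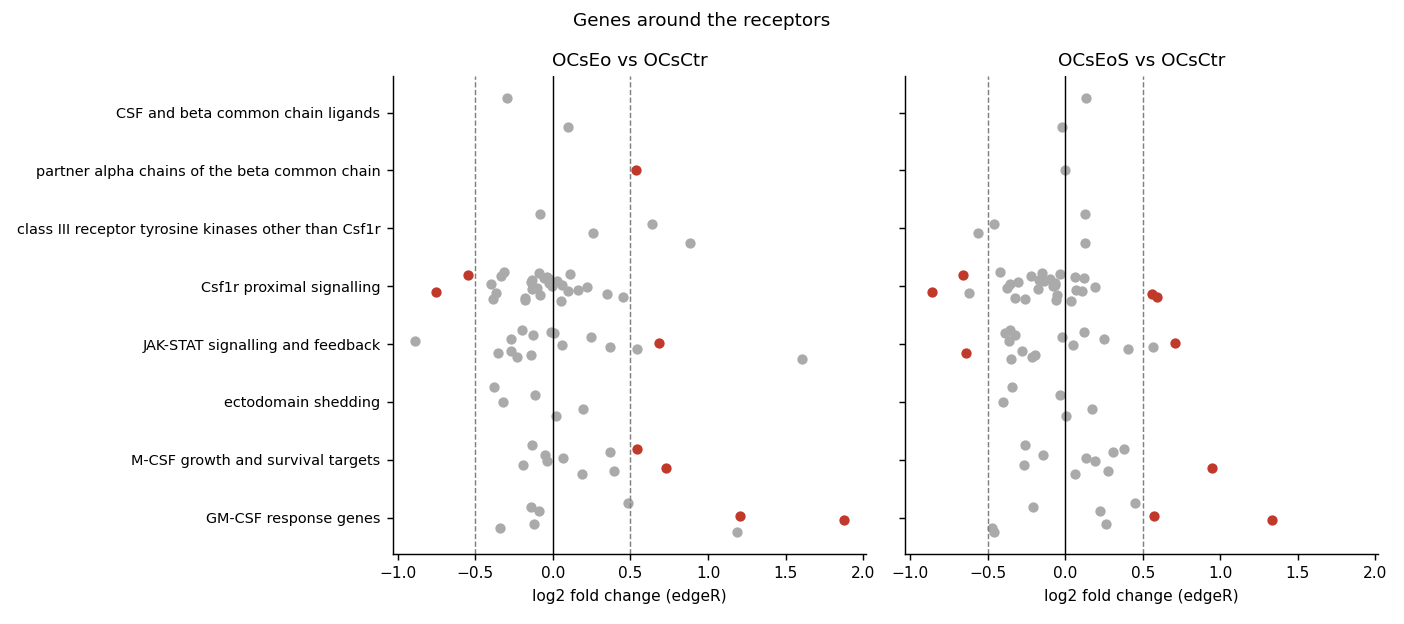
Log2 fold change (x axis) of the tested genes of 8 lists around the receptors (rows) in OCsEo and in OCsEoS against OCsCtr; red points were called and dashed lines mark the fold threshold of 0.5. Il5 is left out because its fitted value depends on the prior count. In the list of proximal signalling, most genes are grey and lie within the dashed lines.

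Compared directly, none of the 5 chains passed the adjusted p of edgeR between OCsEoS and OCsEo. This was passed by 0.592% of tested genes, and 0.38% were called. DESeq2 passed 1 chain, Csf2ra, among 194 genes. At an unadjusted p under 0.05 in edgeR, 1 of the 5 chains passed, also Csf2ra, where 11.1% of genes did. The median difference of the chains was -0.12, beside 0.00 over all genes.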

How the data were processed

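Bulk RNA-seq. was performed on total RNA of 12 osteoclast cultures in 3 groups of 4, with libraries made by the NEBNext Ultra kit. The authors trimmed reads with fastp, aligned them with HISAT2 2.0.5 to GRCm38/mm10 (submitters' processing notes) and counted reads per gene with featureCounts. The counts were used as deposited, as whole numbers without normalization. The annotation release, the handling of reads with several matches and the strand setting are not given in the sources used here, so that genes overlapping on opposite strands cannot be told apart. The deposited table holds 47643 genes, of which 27440 were at 0 in all libraries.

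Analyses were run in R 4.3.3. After edgeR's filterByExpr (minimum count 10) 13681 genes remained. TMM factors of 0.968 to 1.03 scaled the libraries, which were fitted together in edgeR 4.0.16, without a block, and groups were compared with the quasi-likelihood F-test. p-values were Benjamini-Hochberg adjusted over all tested genes. The study used DESeq2, which was run as an alternative (1.42.0) beside other scalings, filters, a test against the fold threshold, a replicate block and fits without each library. Trends with gene length and GC content, and the sum of the paralogs, were added after the data were seen. On simulated counts of OCsEo against OCsCtr, 192 of 200 genes changed by 1 on the log2 scale were called among 13308 genes, with 7 false calls. The changed genes were drawn from the better expressed ones only. Recovery of smaller changes, or of changes at low counts, was not measured. Replicates differed by more than sampling noise (chi-square per degree of freedom 9.99 to 35.7 over 18 pairs).

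The receptor chains and all lists were chosen with earlier results of these data known. Named were all chains, ligands and alpha chains, overlapping genes, up to 4 called genes with the largest change per pathway list, and the 3 genes with the closest pattern to each chain; cell type markers and further genes were named after their values were seen. Some genes that this rule names, and the list of transcription factors, are not reported here. Coordinates and overlaps came from the table and GENCODE vM21 (GRCm38), promoters from RefSeq. Intervals of counts cover counting error only.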

Additional observations from a re-analysis of the deposited data

Results flagged for a closer look

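Of 15 groups of 4 CPM values (5 chains in 3 groups), 2 held a library whose distance to its nearest neighbour took up most of the range of the group, by Dixon's criterion at the 95% level, which chance alone meets in about 5% of groups. Csf2ra had 87.3 CPM in the 2nd OCsEoS library, where the other 3 lay between 69.8 and 70.1 CPM (ratio 0.983). Csf2rb had 120 CPM in the 4th OCsCtr library, above 105 to 107 CPM in the others (ratio 0.833). Between the stimuli, 2 genes of the lists around the receptors differed by the test of the difference itself. Il5 had a fitted log2 fold change of -9.44 for OCsEoS against OCsEo (edgeR adjusted p = 1.30e-04), a value that depends on the prior count because OCsEoS was at 0 counts. Fabp5 had -0.63 in the same comparison (edgeR adjusted p = 0.00120), with all 4 OCsEoS libraries below all OCsEo libraries.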

How the results depend on the processing

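Csf1r kept its direction and passed the adjusted p against OCsCtr in every alternative other than the test against a log2 fold change of 0.5, at -0.48 to -0.40 in OCsEo and -0.64 to -0.50 in OCsEoS. That stricter test called 50 genes in OCsEo, 55 in OCsEoS and 3 between the stimuli, and 0 chains in OCsEoS (Csf1r -0.57, adjusted p = 1). Without 1 library at a time, chains called in OCsEoS were 0 to 1 (Csf1r at -0.498, without the 4th OCsEoS library), and chains past the adjusted p were 1 to 2 in OCsEo, 2 to 3 in OCsEoS and 0 to 1 between the stimuli. There, 17 to 62 genes were called and 24 to 104 passed, against 52 and 81 with all libraries, with the lowest counts without the 3rd OCsEoS library and lower counts of genes called, passing or both without OCsEo 1, 2, 3 or 4 or OCsEoS 1 or 4, each alone. Between the stimuli, 1 chain (Csf2ra) also passed in DESeq2 on all libraries (194 genes, adjusted p = 0.0203), in DESeq2 on these groups alone (162 genes, adjusted p = 0.0482) and without the filter on low counts (224 genes, of which 100 were called, adjusted p = 0.00980). The cause of these shifts was not tested. Deviations of same-numbered libraries correlated weakly, at -0.04 to 0.09 over 12 pairs, yet 9 of 12 libraries correlated best with their own number. Whether replicate numbers pair the samples is thus not settled here. With the replicate block, 2 chains passed in OCsEo (Csf2rb, adjusted p = 0.0399), and 1 (Csf2ra, adjusted p = 0.0197) and 148 genes between the stimuli. Signs that turned belonged to values near 0 that did not pass. With the length trend taken out, Csf2ra was -0.042 in OCsEo and Csf2rb2 0.020 in OCsEoS. Without 1 library at a time, Csf2ra ranged from -0.014 to 0.096 in OCsEo, and Csf2rb2 from -0.13 to 0.016 in OCsEo, from -0.090 to 0.075 in OCsEoS and from -0.023 to 0.14 between the stimuli. Csf3r ranged from -0.28 to 0.19 in OCsEoS. The low counts of Csf3r limit what can be detected for it.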
